A study of Homo sapiens with 21 samples.

Results

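The hypoxia response of each gene was compared between FADU, a head and neck cancer cell line, and BFTC909, a line described as from an upper tract urothelial cancer. A gene entered when it was present in the deposited tables of both lines, which held 15926 genes in common out of 19505 in FADU and 17232 in BFTC909. Of these, 13070 reached a value of 1 in 2 or more of the 4 control libraries of each line and were tested. The quantity tested was the log2 fold change from normoxia to hypoxia in BFTC909 minus the same fold change in FADU, on log2(value + 1), and it is called the difference here. A positive difference means a higher response in BFTC909, either a larger rise or a smaller fall. Values are on the CPM scale after TMM scaling of the library size, and a pair of values names replicates 1 and 2 in that order.

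The series holds 21 RNA-seq libraries on METTL4, a methyltransferase that modifies adenine, of which 8 were used here. All 8 came from cells labelled Scramble-si (Scr-si), the control of the METTL4 knockdown. In each line, 2 libraries came from cells kept at 18% O2 (normoxia) and 2 from cells kept at 1% O2 for 18 h (hypoxia). The knockdown, overexpression and mutant libraries were not part of the comparison, except that the METTL4-si libraries of both lines entered 1 alternative fit.

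Low oxygen stops the prolyl hydroxylases that mark the HIF alpha subunits for destruction, and the stabilised HIF dimer then switches on genes of glucose uptake, glycolysis, pH control, angiogenesis and collagen modification. Oxygen shortage can also slow protein synthesis through phosphorylation of the initiation factor eIF2, the integrated stress response, which favours translation of the factor ATF4 and transcription of its targets in amino acid supply. HIF itself raises its own inhibitors, among them the hydroxylases EGLN1 and EGLN3, so that the response carries a feedback. Which genes respond besides this common core is known to vary between cell types.

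The control libraries held 22.3 to 24.9 M reads on genes in FADU and 21.3 to 24.1 M in BFTC909. The labels do not say whether the libraries of a group came from separate cultures, so p-values measure the spread between these samples, which may be technical. Each line has 1 hypoxia experiment, so a property of the line, its table and its experiment cannot be told apart. The tables were normalised separately, so any level set across the lines is on scales that were not matched. In bulk RNA, fewer cells of a type and less RNA per cell cannot be told apart.

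The labelled cell types were checked by markers. In FADU all 12 squamous markers were at 1 or more in every control library. The BFTC909 table held 4 of the 12, with 2 at 1 or more in each control library. The squamous factor TP63 was at most 0.358 there and SFN at most 0.85. PKP1 read 32.3 and 35.0 in normoxia and 111 and 119 in hypoxia, and COL17A1 13.1 and 14.2, then 3.47 and 4.11. Only 3 of 12 urothelial markers were in the BFTC909 table. Of these, GATA3 stayed under 1, the uroplakin UPK3B was at most 0.503, and PPARG read 28.2 and 26.0 in normoxia and 10.9 and 10.7 in hypoxia. PAX8, a factor of the renal lineage, read 384 and 377 in BFTC909 normoxia and 322 and 331 in hypoxia. It was 1 of only 3 of the 10 renal tubule markers in the BFTC909 table. The others were CUBN, at 2.64 and 3.23 in normoxia and 9.49 and 8.65 in hypoxia, and AQP1, at most 0.985. BFTC909 also had 10 of 12 fibroblast markers in its table, with 7 to 9 at 1 or more in a control library. FADU had 3 of 12, with 3 at 1 or more in normoxia replicate 1, where COL3A1 read 20.3, and 2 in the other libraries. The markers measured go against the urothelial description of BFTC909, which is called here by its name only. FADU Scr-si normoxia replicate 1 stood apart from the other FADU libraries. It held luminal breast markers that the others lacked, such as TFF1 at 26.2 against 0 in the other 3 and GATA3 at 41.1 against 2.19 to 3.19, and the summed level of the 13 breast markers in the table was 377 against 156 to 190. Between the FADU normoxia replicates, 36 tested genes were 2-fold or more apart, against 6 to 11 in the other pairs. Without this library no count of called members of a list changed by more than 3 genes, and several of these counts are given with the lists. Summed leukocyte markers were at most 6.16 in any control library of either line and no erythroid marker was in either table.

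The responses of the lines overlapped in part. Under hypoxia 1553 genes (11.9% of those tested) rose and 1782 (13.6%) fell in FADU, and 2433 (18.6%) rose and 2742 (21.0%) fell in BFTC909. A gene counts as risen, fallen or different when it changed at least 1.3-fold with a Benjamini-Hochberg adjusted p under 0.05 by limma. Of the 1776 genes called in both lines, 1503 moved the same way, 768 up and 735 down. Across the 13070 genes, the log2 fold changes of the lines had a Pearson correlation of 0.417 and a Spearman correlation of 0.389, a description across genes that share libraries. The plot of the responses shows how widely the genes lay around equal responses.

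The response was higher in BFTC909 for 2206 genes (16.9%) and lower for 2300 (17.6%), so that 34.5% of the genes tested differed between the lines. The median difference over all genes was -0.02. In 1008 of these genes only BFTC909 showed a called rise and in 1167 only BFTC909 showed a called fall, while 419 had a called rise and 479 a called fall in FADU alone. Another 396 genes moved the same way in both lines by different amounts: 150 with the larger rise in BFTC909, 91 with the larger rise in FADU, 118 with the larger fall in BFTC909 and 37 with the larger fall in FADU. For 764 genes the difference was called though neither line's own change was. The difference was 2-fold or more in 674 of the called genes.

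Reversed responses, with a called rise in one line, a called fall in the other and a called difference, were found for 273 genes. Of these, 159 (1.22% of the genes tested) rose in BFTC909 and fell in FADU, and 114 (0.872%) fell in BFTC909 and rose in FADU. In all 273 the normoxia and hypoxia libraries did not overlap in either line. Calling a change in each line from these same libraries makes this likely, so it adds no separate support. Most reversals were moderate, with a median log2 fold change of 0.67 in BFTC909 and -0.55 in FADU in the first set, and of -0.66 in BFTC909 and 0.61 in FADU in the second. Only 14 genes changed 2-fold or more in both lines in opposite directions. In the first set 128 of the 159 genes were protein coding and 9 were lncRNAs, and in the second 100 and 5 of the 114. Most of the 13070 genes tested were also protein coding, with 10819 of this type and 1010 lncRNAs. The gene types of the reversed sets were not tested against these counts.

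In many of these genes hypoxia brought the lines closer or exchanged their order. In normoxia, 105 of the 159 genes of the first set (66.0%) were lower in BFTC909, the line in which they rose, against 58.2% of all genes tested. In the second set 85 of 114 (74.6%) were lower in FADU in normoxia, against 41.8% of all genes. The order of the lines was exchanged in hypoxia for 59 genes of the first set and 40 of the second. A reversed gene that starts lower in the line where it rises must come closer or cross. Its approach or exchange thus follows from the definition, and no share over all genes was computed for the exchange. These levels come from tables normalised separately, and a starting level also enters the response itself, so the shares are given with no test.

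ARTN encodes artemin, a ligand of the GDNF family, and was the protein-coding gene with the largest difference among those reversed upward in BFTC909 (ENSG00000117407, chr1:44398992-44402912, plus strand, in GRCh37 as all gene coordinates here). Its values were 32 and 31.2 in normoxic FADU, 9.79 and 10.2 in hypoxic FADU, 14.9 and 14.4 in normoxic BFTC909 and 49.5 and 50.7 in hypoxic BFTC909. Hypoxic FADU was the lowest group and hypoxic BFTC909 the highest, with a difference of 3.28 ± 0.098 (SE) with a limma adjusted p of 6.8e-12.

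VEGFA, the main growth factor of blood vessels and a classical HIF target, was also reversed (ENSG00000112715, chr6:43737921-43754224, plus strand). FADU read 237 and 248 in normoxia and 176 and 189.5 in hypoxia, 0.754 times the normoxic mean. BFTC909 read 70.2 and 83.8 in normoxia and 439.6 and 432 in hypoxia, 5.66 times the normoxic mean. The line with the lower values in normoxia had the higher values in hypoxia, with a difference of 2.90 ± 0.093 (SE) and a limma adjusted p of 1.4e-11.

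DHRS3, which reduces retinaldehyde and so limits retinoic acid, read 28.9 and 29.1 in normoxic FADU and 19.2 and 20.1 in hypoxic FADU (ENSG00000162496, chr1:12627939-12678216, minus strand). In BFTC909 it rose from 2.64 and 2.73 to 21.2 and 21.6, so that the hypoxic values of both lines were close, and the difference was 3.14 ± 0.11 (SE) (limma adjusted p = 5.2e-11). DOCK11, an exchange factor of the GTPase CDC42, started at a similar level in both lines (ENSG00000147251, chrX:117629778-117820126, plus strand). Its values were 27.4 and 31.5 in normoxic FADU, 8.0 and 8.98 in hypoxic FADU, 34.1 and 32.1 in normoxic BFTC909 and 74.3 and 73.1 in hypoxic BFTC909, a difference of 2.81 ± 0.11 (SE) (limma adjusted p = 1.2e-10).

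The largest positive difference belonged to MIR3648, a short microRNA gene on chromosome 21 (ENSG00000264462, chr21:9825832-9826011, plus strand), at 2356 and 2215 in normoxic FADU, 464 and 672 in hypoxic FADU, 255 and 781 in normoxic BFTC909 and 1269 and 1273 in hypoxic BFTC909. The BFTC909 normoxia libraries were further apart there than the hypoxia libraries were from the higher of them, and the difference of 3.54 ± 0.45 (SE) had the widest error of the 12 reversed genes named (limma adjusted p = 1.5e-05). MIR663AHG, the host transcript of a microRNA on chromosome 20, moved in the same directions (ENSG00000227195, chr20:26148453-26232182, minus strand), from 607 and 739 to 147 and 162 in FADU and from 169.2 and 124 to 249 and 275 in BFTC909. Its difference was 2.96 ± 0.16 (SE), with a limma adjusted p of 2.7e-09. Both genes lie in repeated sequence, so the origin of their reads is uncertain.

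UCA1, a lncRNA named for its presence in urothelial carcinoma, had the largest reversal in the other direction among genes with a mean value of at least 5 in each line (ENSG00000214049, chr19:15939016-15947138, plus strand). FADU read 26.8 and 27.6 in normoxia and 98.3 and 101 in hypoxia. BFTC909 read 127 and 125 in normoxia and 30.3 and 29.4 in hypoxia, so that each line reached in hypoxia about the level from which the other had started. The difference was -3.88 ± 0.074 (SE), with a limma adjusted p of 6.1e-14.

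PFKFB4 makes and degrades the sugar bisphosphate that activates phosphofructokinase, and is known as a HIF target (ENSG00000114268, chr3:48555117-48599448, minus strand). It read 7.64 and 9.69 in normoxic FADU, 59.8 and 63.5 in hypoxic FADU, 65.5 and 65.9 in normoxic BFTC909 and 40.7 and 42.1 in hypoxic BFTC909. FADU started far below BFTC909 and ended above it, with a difference of -3.36 ± 0.12 (SE) (limma adjusted p = 3.7e-11).

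CLDN1, a claudin of the tight junction, rose in FADU from 47.5 and 48.7 to 72.8 and 95 and fell in BFTC909 from 118 and 118 to 29.7 and 30.1 (ENSG00000163347, chr3:190023496-190040235, minus strand), a difference of -2.72 ± 0.12 (SE) (limma adjusted p = 3.6e-10). PHLDB2, which anchors microtubules at the cell cortex, was at 33.4 and 34.8 and then 98.9 and 102 in FADU, and at 94 and 96.3 and then 51.2 and 49.6 in BFTC909 (ENSG00000144824, chr3:111451344-111695364, plus strand). As with UCA1, the lines exchanged places, with a difference of -2.43 ± 0.073 (SE) (limma adjusted p = 6.8e-12).

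CRYBG2, a gene with crystallin domains, read 8.35 and 7.73 in normoxic FADU, 14.8 and 16.6 in hypoxic FADU, 15.1 and 13.9 in normoxic BFTC909 and 3.42 and 2.91 in hypoxic BFTC909 (ENSG00000176092, chr1:26648189-26686571, minus strand), a difference of -2.78 ± 0.15 (SE) (limma adjusted p = 2.7e-09). FABP5P7, a pseudogene of the fatty acid carrier FABP5, read 3.49 and 3.4 in normoxic FADU, 8.81 and 10.3 in hypoxic FADU, 7.74 and 8.35 in normoxic BFTC909 and 2.99 and 3.54 in hypoxic BFTC909 (ENSG00000234964, chr11:59548791-59549195, minus strand). Its difference was -2.34 ± 0.17 (SE) (limma adjusted p = 5.2e-08). FABP5 itself was reversed in the same way, from 63.8 and 56.4 to 118 and 114 in FADU and from 92.2 and 93.3 to 46 and 47.7 in BFTC909. Reads of the gene and its near-identical copy may have been split between them, so the value of the pseudogene is uncertain.

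**Figure D1:**
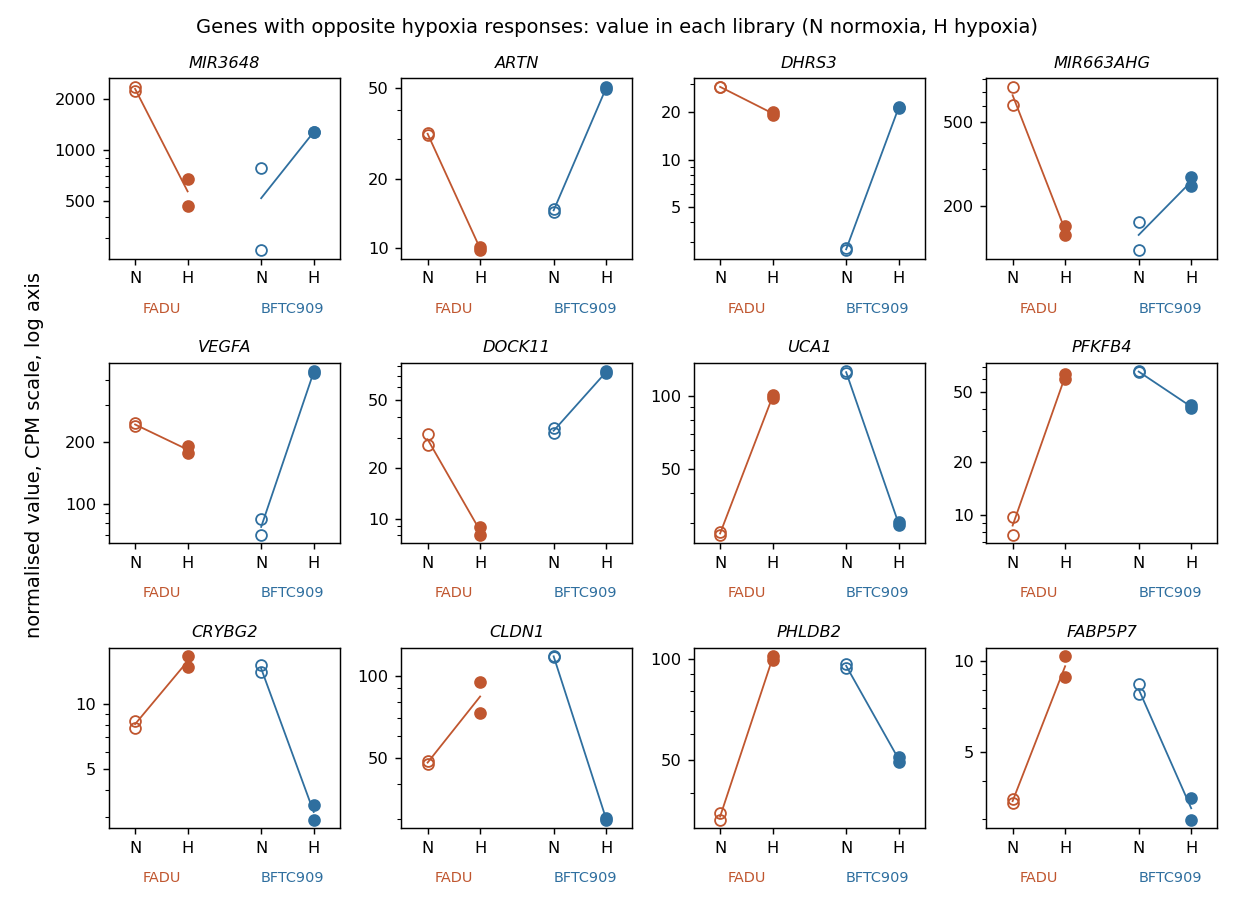
Normalised value, on a log axis, of the 12 genes with the largest reversals, 6 in each direction, among those with a mean value of at least 5 in each line, in each of the 2 libraries of each group, with open circles for normoxia (N), filled circles for hypoxia (H) and lines between group means. In all 12 the lines slope in opposite directions in FADU (left) and BFTC909 (right), and the widest replicate spread is that of MIR3648 in BFTC909 normoxia, at 255 and 781.

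Other large differences came from genes whose change was called in a single line. FER1L4, a transcribed pseudogene of the ferlin family, read 37 and 35.4 in normoxic FADU and 31.4 and 31.7 in hypoxic FADU. It rose in BFTC909 from 2.42 and 2.81 to 30.3 and 31.6, a difference of 3.34 ± 0.11 (SE) (limma adjusted p = 2.5e-11). NRP2, a neuropilin that acts as a coreceptor for VEGF-C and semaphorins, fell in FADU from 25.8 and 25.5 to 2.43 and 2.23. In BFTC909 it read 326 and 342 in normoxia and 380.0 and 386 in hypoxia, a difference of 3.20 ± 0.077 (SE) (limma adjusted p = 8.6e-13). PGF, a placental growth factor of the VEGF family, rose in FADU from 4.65 and 5.45 to 30.5 and 37.7 and read 20.6 and 19.7 in BFTC909 normoxia and 15.7 and 18.3 in hypoxia. Its difference was -2.77 ± 0.15 (SE) (limma adjusted p = 3.4e-09). THBS1, a matrix glycoprotein that restrains vessel growth, fell in BFTC909 from 284 and 283 to 33.8 and 32.7, while FADU read 144 and 144 in normoxia and 121 and 107 in hypoxia, a difference of -2.72 ± 0.078 (SE) (limma adjusted p = 6e-12).

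Among genes that rose in both lines, CDK18, a kinase of the cyclin-dependent family, rose from 14.6 and 11.2 to 22.8 and 23.3 in FADU and from 1.21 and 2.6 to 35.4 and 36.3 in BFTC909, with a difference of 2.91 ± 0.24 (SE) (limma adjusted p = 2e-07). CA9, a surface carbonic anhydrase that exports acid and is a standard HIF target, read 2.33 and 2.55 in normoxic FADU, 31 and 37.8 in hypoxic FADU, 0.358 and 1.18 in normoxic BFTC909 and 54 and 56.2 in hypoxic BFTC909, a difference of 1.67 ± 0.23 (SE) (limma adjusted p = 3.5e-05). With normoxic values this low, the log2(value + 1) scale understates the rise in BFTC909. ACKR3, a scavenging chemokine receptor, rose from 12.9 and 9.07 to 28.5 and 34.2 in FADU and from 9.62 and 10.9 to 93.6 and 92.9 in BFTC909, a difference of 1.62.

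The rise was larger in FADU for TCAF2, a regulator of cold-sensing channels with related copies that may share its reads, which went from 2.24 and 1.88 to 34.3 and 37.6 in FADU and from 5.64 and 5.92 to 12.1 and 14.6 in BFTC909. NDRG1, a stress-induced gene among the most used hypoxia markers, rose from 144 and 146 to 2650 and 3135 in FADU and from 118 and 124 to 535 and 569.5 in BFTC909. The differences of these genes were -2.52 and -2.12. All of the NDRG1 libraries of hypoxic FADU lay above those of hypoxic BFTC909 although the normoxic levels were close.

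Among genes that fell in both lines, WNT7B, a ligand of the Wnt pathway, fell from 138 and 133 to 49.5 and 42.2 in FADU and from 61 and 60.9 to 4.14 and 5.78 in BFTC909, a difference of -1.84. ETV4, an ETS factor downstream of ERK, fell from 17.3 and 18.2 to 9.88 and 8.71 in FADU and from 15 and 16.2 to 1.69 and 1.43 in BFTC909, a difference of -1.83. KIAA1671 fell from 17.4 and 18 to 1.88 and 2.34 in BFTC909 and from 192 and 200.5 to 145 and 151 in FADU, a difference of -2.19. The fall was larger in FADU for ELFN2, from 47.5 and 43.5 to 5.89 and 5.75 against 10.7 and 9.35 to 4.19 and 4.16 in BFTC909, a difference of 1.68. It was also larger in FADU for MT-ND6 and for its nuclear pseudogene copy MTND6P4, whose differences were 1.71 and 1.79 and whose reads cannot be fully separated.

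Gene lists of pathways were then read by their counts of called differences and their medians, beside the 16.9% higher and 17.6% lower among all genes. They were written with earlier results of these data known and have no test.

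**Figure D2:**
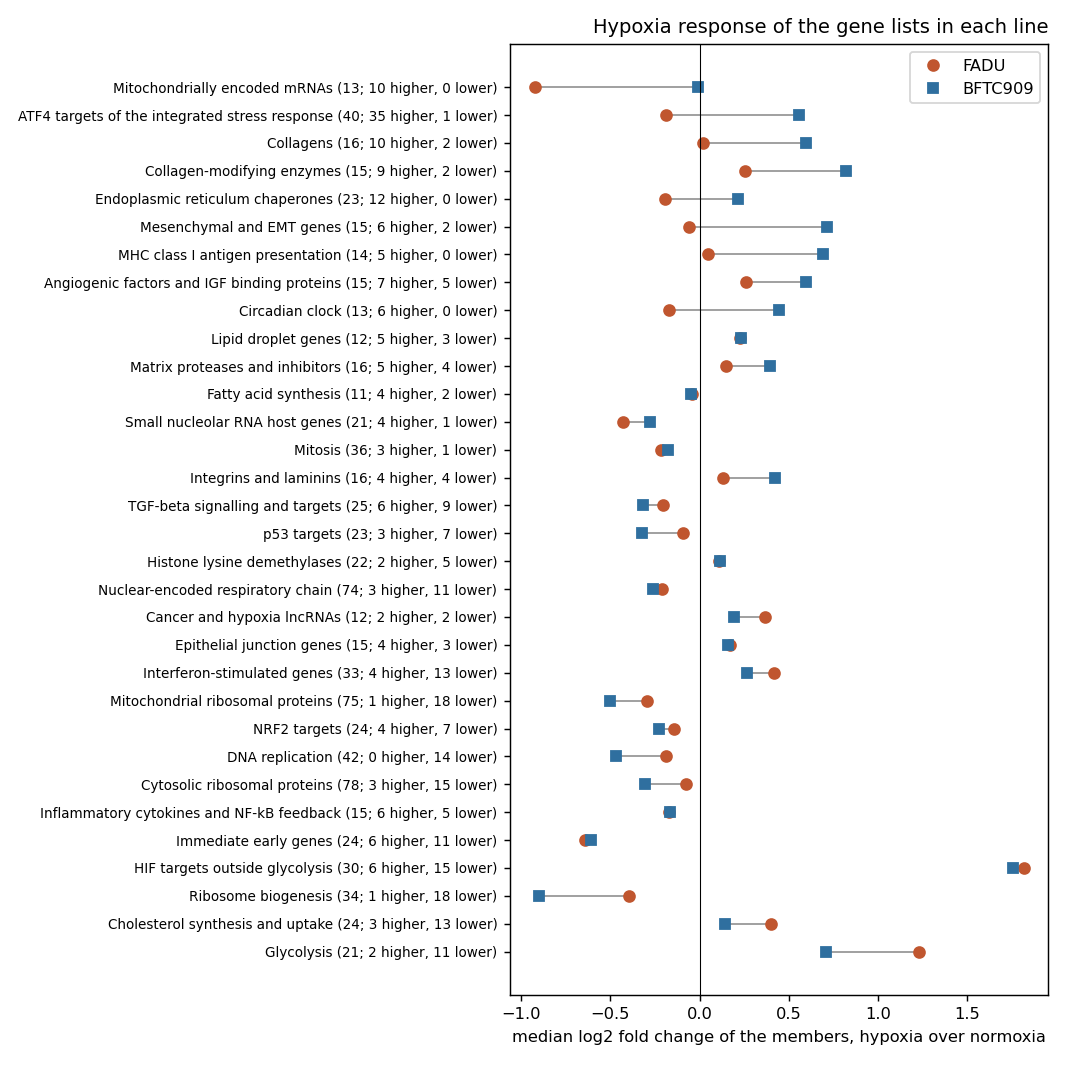
Median log2 fold change from normoxia to hypoxia of the tested members of each gene list in FADU (circles) and BFTC909 (squares), for the lists with at least 10 tested members, in the order of the median difference. The numbers in brackets are the members tested and those with a called higher or lower response in BFTC909. Mitochondrially encoded mRNAs and ATF4 targets stand at the top with medians of -0.93 and -0.19 in FADU against -0.01 and 0.56 in BFTC909, and glycolysis stands at the bottom with 1.23 against 0.71.

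The ATF4 targets of the integrated stress response had the largest share of called differences among the pathway lists. Of 40 tested members, 35 (87.5%) had a higher response in BFTC909 and 1 (2.5%) a lower one. The median log2 fold change was -0.19 in FADU and 0.56 in BFTC909, and the median difference was 0.78 against -0.02 over all genes. In BFTC909 28 members rose and 1 fell, and in FADU 2 rose and 9 fell. Without FADU Scr-si normoxia replicate 1, 34 members were higher and 1 was lower.

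Of the 40 members, 6 reversed, and 4 of the 6 belong to amino acid transport. SLC7A5 and SLC3A2 form the light and heavy chain of the transporter for large neutral amino acids. SLC7A5 fell in FADU from 2275 and 2136 to 1596 and 1659 and rose in BFTC909 from 375 and 382 to 882 and 919, a difference of 1.69 ± 0.069 (SE) (limma adjusted p = 1.7e-10). SLC3A2 went from 499 and 535 to 366 and 390.0 in FADU and from 203 and 211 to 302 and 315 in BFTC909, a difference of 1.03 ± 0.07 (SE) (limma adjusted p = 3.3e-08). Both chains fell in the line with the higher normoxic values and rose in the other.

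SLC7A11, which imports cystine with the same heavy chain, fell from 206 and 226 to 145 and 155 in FADU and rose from 133 and 137 to 276 and 235 in BFTC909, a difference of 1.43 ± 0.095 (SE) (limma adjusted p = 2.4e-08). SLC1A5, the main glutamine carrier, fell from 151 and 143 to 92.9 and 99.8 and rose from 241 and 252 to 379 and 405 in the same order of lines, a difference of 1.27 ± 0.074 (SE) (limma adjusted p = 5.6e-09). SLC1A4, a carrier of alanine, serine and cysteine, read 12 and 11.7 in normoxia and 10.2 and 12.4 in hypoxia in FADU and rose from 22.9 and 25 to 61.8 and 68.8 in BFTC909, a difference of 1.48.

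The other reversed members were CHAC1, which degrades glutathione, and MARS1, the methionyl-tRNA synthetase. CHAC1 had the largest difference of the list, at 8.68 and 7.37 in normoxic FADU, 3.19 and 4.51 in hypoxic FADU, 5.01 and 6.54 in normoxic BFTC909 and 11.6 and 14.1 in hypoxic BFTC909, a difference of 1.94 ± 0.21 (SE) (limma adjusted p = 3.8e-06). MARS1 fell from 229.9 and 227 to 145 and 141 in FADU and rose from 163 and 166 to 222 and 229.9 in BFTC909, a difference of 1.13 ± 0.061 (SE) (limma adjusted p = 2.7e-09).

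Further members, named after their values had been seen, include its central factors. ATF4 itself read 329 and 339 in FADU normoxia and 261 and 278 in hypoxia, and rose in BFTC909 from 165 and 165 to 216 and 221, a difference of 0.71 ± 0.064 (SE) (limma adjusted p = 5e-07). DDIT3, the factor CHOP, read 7.27 and 8.89 in normoxia and 6.16 and 7.62 in hypoxia in FADU and rose from 12.7 and 15.5 to 26.6 and 26.1 in BFTC909. TRIB3, a pseudokinase that feeds back on ATF4, read 31.4 and 31.3 in normoxia and 25 and 31.1 in hypoxia in FADU and rose from 38.7 and 38.7 to 72.8 and 77.1 in BFTC909. PHGDH, the entry enzyme of serine synthesis, read 188 and 192 in normoxia and 158 and 176 in hypoxia in FADU and rose from 82.4 and 78.7 to 188 and 193 in BFTC909. In each of these genes the BFTC909 groups did not overlap, and the FADU change was not called.

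ASNS, asparagine synthetase, had normoxic values of 71.2 and 81.4 in FADU and 84.2 and 86.7 in BFTC909. It read 97.6 and 98.2 in FADU hypoxia and rose to 206 and 209 in BFTC909 hypoxia, a difference of 0.91 ± 0.081 (SE) (limma adjusted p = 4.8e-07). The only member lower in BFTC909 was ATF3, a stress factor that many other pathways also induce. ATF3 rose in FADU from 2.83 and 2.5 to 8.18 and 10.6 and read 1.21 and 1.34 in BFTC909 normoxia and 1.83 and 1.43 in hypoxia, a difference of -1.29 ± 0.21 (SE) (limma adjusted p = 0.00012).

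ATF4 binds, with C/EBP partners, an element read as TGATGNAA on either strand. In the RefSeq promoter table (GRCh38.p14), these letters were in the 250 bases before the start of 3.19% of 27305 promoters, of 1.34% of the 9376 promoters of tested genes, and of 5 of the 33 matched members of the ATF4 list (15.2%), AARS1, ASNS, ATF3, CHAC1 and IARS1. Among the matched reversed genes it was in 4 of 94 that rose in BFTC909 and 1 of 84 that rose in FADU. The promoters of CHAC1 and ASNS are shown, with the element in capitals, 5′ to 3′ on the strand of the gene. CHAC1 was the largest reversal of the list. ASNS was a member whose rise was called in BFTC909 alone, while its FADU rise of 1.28-fold was under the threshold. CHAC1 lies at chr15:40953221-40953470, plus strand, and ASNS at chr7:97872409-97872658, minus strand.
CHAC1: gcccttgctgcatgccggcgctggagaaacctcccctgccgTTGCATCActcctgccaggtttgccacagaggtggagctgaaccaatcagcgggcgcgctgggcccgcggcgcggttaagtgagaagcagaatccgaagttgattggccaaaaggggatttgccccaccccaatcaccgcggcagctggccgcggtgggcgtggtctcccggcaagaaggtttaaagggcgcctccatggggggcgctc
ASNS: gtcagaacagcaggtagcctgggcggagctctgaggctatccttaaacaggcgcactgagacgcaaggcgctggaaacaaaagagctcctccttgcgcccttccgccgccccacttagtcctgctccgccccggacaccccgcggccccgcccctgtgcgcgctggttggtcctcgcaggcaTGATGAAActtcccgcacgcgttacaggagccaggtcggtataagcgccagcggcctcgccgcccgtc
The element begins 209 bases before the start of CHAC1 and 68 bases before that of ASNS. In CHAC1 it reads on the opposite strand. A match describes the letters in this window and is not a measured binding site.

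Endoplasmic reticulum chaperones and their regulators had 12 of 23 tested members (52.2%) with a higher response in BFTC909 and 0 with a lower one by limma, where 0 had a lower one at an unadjusted p under 0.05 and 0 by edgeR. Their median was -0.19 in FADU and 0.22 in BFTC909, and the counts were the same without FADU Scr-si normoxia replicate 1. XBP1, the factor of the unfolded protein response, fell in FADU from 86.9 and 73.9 to 48.7 and 53.3 and rose in BFTC909 from 101 and 108 to 180.0 and 190.1, a difference of 1.46 ± 0.099 (SE) (limma adjusted p = 3.3e-08). It is also one of the breast markers and read higher in FADU normoxia replicate 1, without which the difference was 1.34, and its adjusted p was 0.0523 in the fit to all 12 libraries. CALR, a calcium-binding chaperone, read 621 and 643 in normoxic FADU, 504 and 525 in hypoxic FADU, 932 and 947 in normoxic BFTC909 and 1206 and 1236 in hypoxic BFTC909, changes under the threshold in each line with a called difference of 0.67. HSPA5, the chaperone BiP, fell in FADU from 691 and 787 to 549 and 568 and read 690.4 and 686 in normoxia and 713 and 753 in hypoxia in BFTC909, a difference of 0.49, and was named after its values had been seen. SYVN1, a ligase of protein degradation in this compartment, read 42 and 40.9 in normoxia and 35.3 and 37 in hypoxia in FADU and rose from 31.3 and 31.3 to 41.2 and 42.9 in BFTC909.

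The mitochondrial genome encodes 13 mRNAs, which are transcribed as long precursors and encode core subunits of the respiratory chain. In FADU 10 of them fell, while in BFTC909 1 rose and 1 fell. The response was higher in BFTC909 for 10 of 13 (76.9%), with or without FADU Scr-si normoxia replicate 1, and lower for 0 (0 at an unadjusted p under 0.05 and 0 by edgeR), and the median difference was 0.98. MT-ATP8, an ATP synthase subunit, fell in FADU from 596 and 534 to 112 and 115 and read 189 and 170.3 in BFTC909 normoxia and 184 and 159 in hypoxia, a difference of 2.23 ± 0.1 (SE) (limma adjusted p = 3.6e-10). MT-ND6, the complex I subunit on the other strand of the genome, fell in both lines, from 831 and 728 to 118 and 102 in FADU and from 387 and 362 to 189 and 159 in BFTC909. MT-ND3, also of complex I, fell in FADU from 1181 and 1001 to 384 and 411 and read 349 and 367 in normoxia and 357 and 315 in hypoxia in BFTC909. MT-CYB, the cytochrome b gene, was the reversed member, at 3757 and 2998 in normoxic FADU, 2105 and 2074 in hypoxic FADU, 2322 and 2392 in normoxic BFTC909 and 3543 and 3198 in hypoxic BFTC909, a difference of 1.20 ± 0.12 (SE) (limma adjusted p = 1.2e-06).

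The members were not alike in size. MT-CO1 and MT-ND4, named after their values had been seen, had differences of 0.22 ± 0.098 (SE) and 0.24 ± 0.1 (SE), which did not pass (limma adjusted p = 0.076 and 0.054). MT-CO1, a cytochrome oxidase subunit, read 9783 and 9037 in normoxic FADU, 9296 and 9138 in hypoxic FADU, 11620 and 11800 in normoxic BFTC909 and 13690 and 13070 in hypoxic BFTC909, and the groups of FADU overlapped. MT-ND4, of complex I, read 9539 and 8805 in normoxic FADU, 8877 and 8652 in hypoxic FADU, 5025 and 5152 in normoxic BFTC909 and 6113 and 5442 in hypoxic BFTC909. Among the members named, the shorter genes MT-ATP8 (chrM:8366-8572), MT-ND3 (chrM:10059-10404) and MT-ND6 (chrM:14149-14673) fell most in FADU. MT-CYB (chrM:14747-15887), MT-ND4 (chrM:10760-12137) and MT-CO1 (chrM:5904-7445) are longer and changed less there. Whether gene length entered these values was not tested. The respiratory chain subunits encoded in the nucleus had few higher responses. Of 74 tested, 3 (4.05%) were higher and 11 (14.9%) lower in BFTC909, with a median difference of -0.04 whose sign changed under 2 alternatives. UQCR11, ATP5PF and NDUFA5, subunits of complex III, the ATP synthase and complex I, had the largest differences, with a called fall in BFTC909 alone. UQCR11 read 5.65 and 5.85 in normoxia and 5.66 and 5.56 in hypoxia in FADU and fell from 18.4 and 17.8 to 9.15 and 9.84 in BFTC909.

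**Figure D3:**
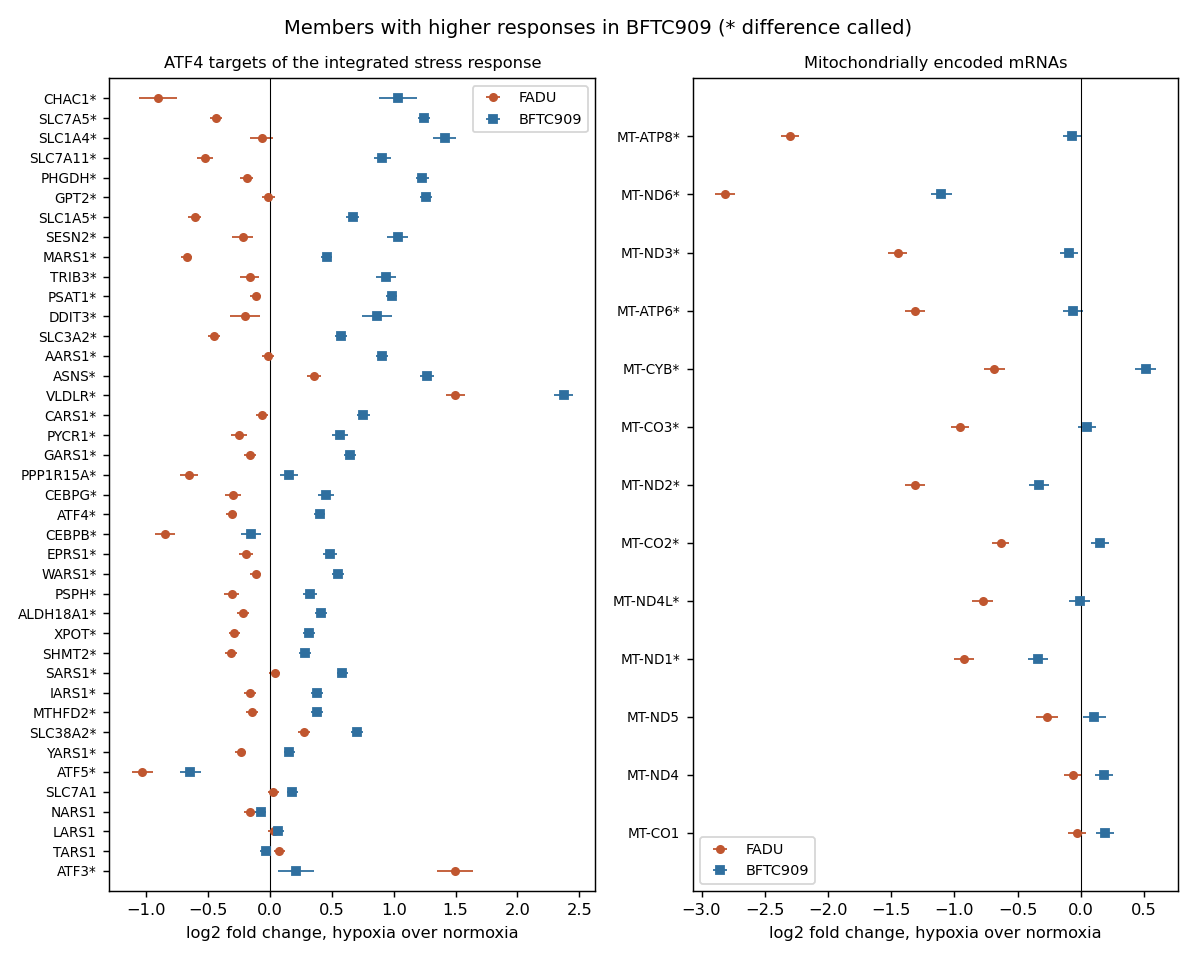
Log2 fold change from normoxia to hypoxia, with its standard error as bars, of the 40 tested ATF4 targets (left) and the 13 mitochondrially encoded mRNAs (right) in FADU (circles) and BFTC909 (squares), with asterisks at called differences. The BFTC909 points lie to the right of the FADU points in 35 called ATF4 targets and in 10 called mitochondrial mRNAs, and ATF3, at the bottom of the left panel, is the exception.

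Of 9 tested HIF subunits and oxygen sensors, 2 (22.2%) had a higher response in BFTC909 and 3 (33.3%) a lower one. HIF1A, the oxygen-regulated subunit, read 204 and 197 in normoxic FADU, 157 and 155 in hypoxic FADU, 640.3 and 635 in normoxic BFTC909 and 497 and 459 in hypoxic BFTC909, with a difference of -0.06 ± 0.066 (SE) that did not pass (limma adjusted p = 0.51). EPAS1, the gene of the second alpha subunit, read 71.8 and 67.5 in normoxia and 73.5 and 78.3 in hypoxia in FADU and rose in BFTC909 from 202 and 201 to 367 and 364, a difference of 0.73 ± 0.068 (SE) (limma adjusted p = 7.6e-07). The partner ARNT read 50.6 and 47.7 in normoxic FADU, 59.4 and 60.8 in hypoxic FADU, 35 and 37.9 in normoxic BFTC909 and 45.5 and 48.1 in hypoxic BFTC909, with a difference of 0.07 ± 0.086 (SE). ARNT2 fell in BFTC909 from 3.22 and 3.44 to 0.386 and 0.287 and read 5.07 and 3.48 in normoxia and 3.77 and 4.61 in hypoxia in FADU. Its difference of -1.69 ± 0.22 (SE) was called (limma adjusted p = 2.1e-05) but had an adjusted p of 0.113 in the fit to all 12 libraries.

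EGLN3 and EGLN1, the hydroxylases that HIF induces against itself, rose more in FADU. EGLN3 rose from 19.9 and 23.2 to 274 and 311 in FADU and from 2.19 and 2.56 to 7.47 and 6.88 in BFTC909, a difference of -2.42 ± 0.13 (SE) (limma adjusted p = 3.1e-09). EGLN1 rose from 33.7 and 33.5 to 114 and 115 in FADU and from 135 and 138 to 208 and 197 in BFTC909, a difference of -1.17 ± 0.067 (SE) (limma adjusted p = 4.7e-09). On the separately normalised scales, every BFTC909 library read higher in EGLN1 and lower in EGLN3 than the FADU libraries of the same oxygen. EGLN2, a hydroxylase not induced by HIF, fell in FADU from 22.8 and 24.3 to 17.2 and 17.2 and read 13.7 and 12.1 in normoxia and 13.8 and 12.1 in hypoxia in BFTC909. Its difference of 0.43 was no longer called without BFTC909 hypoxia replicate 1 (0.34) or BFTC909 normoxia replicate 2 (0.35), nor in the fit to all 12 libraries (adjusted p = 0.0523). The ubiquitin ligase gene VHL and the asparagine hydroxylase gene HIF1AN had differences of -0.08 ± 0.079 (SE) and 0.14 ± 0.069 (SE), neither called.

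HIF targets outside glycolysis rose nearly throughout in both lines, 29 of 30 tested in FADU and all 30 in BFTC909, but by different amounts. The response was lower in BFTC909 for 15 (50%) and higher for 6 (20%), with a median difference of -0.39 and medians of 1.82 in FADU and 1.76 in BFTC909. Without FADU Scr-si normoxia replicate 1, 14 were lower and 5 higher. VEGFA was the member that fell in FADU.

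EGLN3 and NDRG1 were among the members with large negative differences. Other members were named after their values had been seen. ANGPTL4, an inhibitor of lipoprotein lipase, rose from 3.28 and 3.66 to 29.6 and 38.3 in FADU and from 10.8 and 10.9 to 23.2 and 27.4 in BFTC909, a difference of -1.81. BNIP3, a mitophagy receptor, rose from 14.4 and 15.4 to 188 and 175 in FADU and from 97.2 and 98 to 354 and 346 in BFTC909, a difference of -1.69, and its relative BNIP3L had a difference of -0.58. ADM, the vasodilator adrenomedullin, rose from 7.81 and 7.19 to 57.5 and 60.9 in FADU and from 44.7 and 47.3 to 157 and 160.3 in BFTC909. For BNIP3 and ADM, hypoxic FADU stayed below hypoxic BFTC909, and below it in normoxia too, although its fold change was larger. HILPDA, a lipid droplet protein, rose more in BFTC909, from 9.76 and 10.9 to 45 and 49.5, against 8.77 and 8.76 to 25 and 27.7 in FADU.

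Glycolysis showed the same tilt. Of 21 tested genes, 11 (52.4%) had a lower response in BFTC909 and 2 (9.52%) a higher one, with medians of 1.23 in FADU and 0.71 in BFTC909, and the counts were the same without FADU Scr-si normoxia replicate 1. In FADU 20 members rose, and in BFTC909 15 rose and 2 fell. After PFKFB4, the largest difference was that of ALDOC, an aldolase, which rose in FADU from 30.3 and 31.8 to 116 and 139.5 and stayed low in BFTC909, at 1.43 and 1.049 in normoxia and 1.01 and 1.19 in hypoxia. PDK1, which closes the entry of pyruvate into mitochondria, rose from 39.7 and 40.1 to 263 and 271 in FADU and from 142 and 139 to 366 and 348 in BFTC909, a difference of -1.37 ± 0.064 (SE) (limma adjusted p = 6.2e-10).

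Among members named after their values had been seen, PFKFB3, of the family of PFKFB4, rose from 36.9 and 34.8 to 130.4 and 134 in FADU and from 121 and 123 to 172 and 184 in BFTC909. LDHA, lactate dehydrogenase, rose from 834 and 862 to 2315 and 2401 and from 2205 and 2220 to 3596 and 3657, and PGK1, phosphoglycerate kinase, from a mean of 251 to 994 and from 778 to 1799 (n = 2), in the same order of lines. Their differences were -1.31, -0.76 and -0.77. As with BNIP3, the line with the larger rise had the lower level in normoxia and in hypoxia. The glucose transporter SLC2A1 and the phosphofructokinase PFKL rose more in BFTC909. SLC2A1 went from 371 and 352 to 1281 and 1409 in FADU and from 88.3 and 96.3 to 484 and 505 in BFTC909, and PFKL from 109 and 97.5 to 176 and 186 and from 64.2 and 72.3 to 203 and 213.

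**Figure D4:**
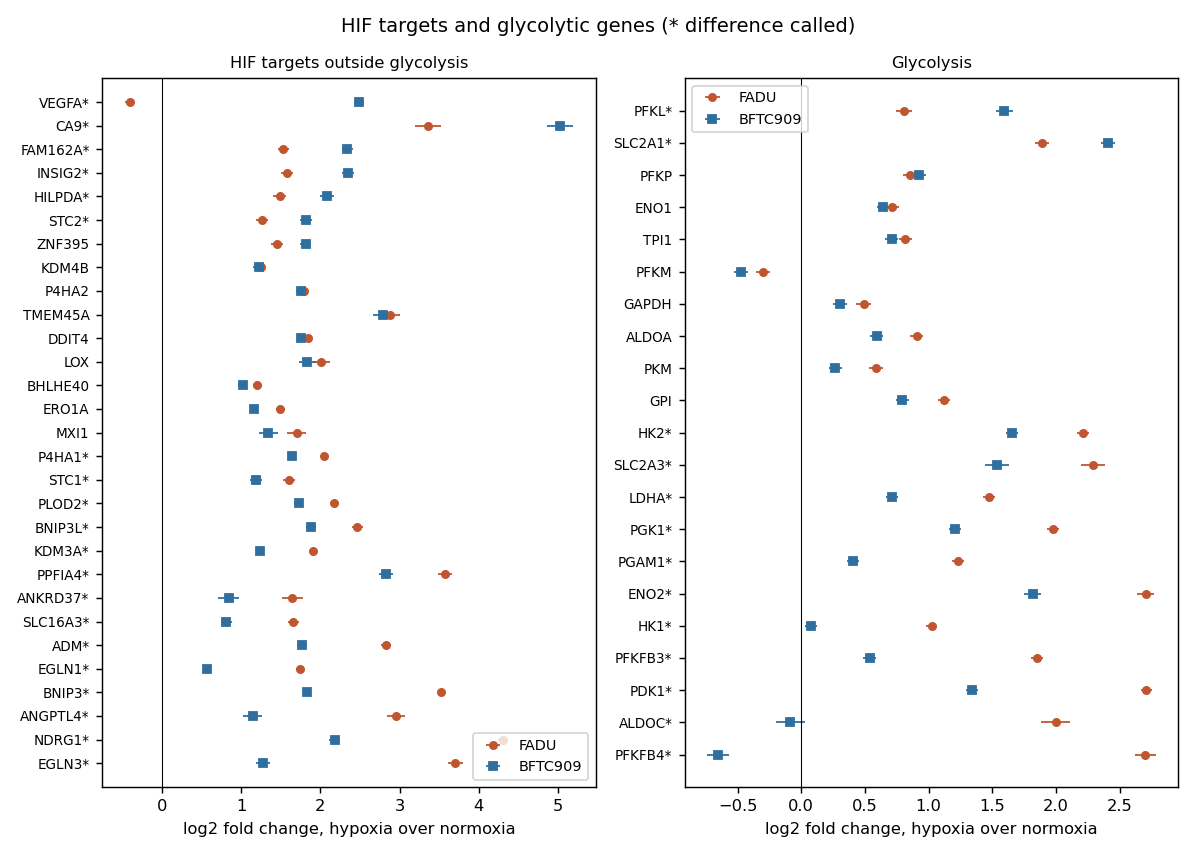
Log2 fold change from normoxia to hypoxia, with its standard error as bars, of 29 of the 30 tested HIF targets outside glycolysis (left) and the 21 tested glycolytic genes (right) in FADU (circles) and BFTC909 (squares), with asterisks at called differences. The 14 HIF targets drawn and 11 glycolytic genes with lower responses in BFTC909 lie in the lower rows, and VEGFA, at the top of the left panel, is the HIF target with opposite signs.

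The core letters of the hypoxia response element, ACGTG on either strand, were in the 250 bases before the start of 18.7% of the 27305 RefSeq promoters, of 24.3% of the promoters of tested genes, of 15 of 23 matched HIF targets outside glycolysis (65.2%) and of 8 of 20 matched glycolytic genes (40.0%). Among matched reversed genes it was in 18 of 94 that rose in BFTC909 and 15 of 84 that rose in FADU, shares of 19.1% and 17.9%. The promoters of EGLN1, ALDOC and CA9 are shown since these genes rose more in FADU, rose in FADU alone and rose more in BFTC909, and all hold the letters, which are in capitals, 5′ to 3′ on the strand of the gene. The build is GRCh38.p14, with EGLN1 at chr1:231422288-231422537 (minus strand), ALDOC at chr17:28576896-28577145 (minus strand) and CA9 at chr9:35673678-35673927 (plus strand).
EGLN1: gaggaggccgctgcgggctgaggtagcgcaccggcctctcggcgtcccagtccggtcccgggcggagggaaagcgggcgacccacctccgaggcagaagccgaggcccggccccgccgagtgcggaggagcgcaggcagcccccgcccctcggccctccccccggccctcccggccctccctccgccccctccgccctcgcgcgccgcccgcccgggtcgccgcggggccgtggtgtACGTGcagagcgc
ALDOC: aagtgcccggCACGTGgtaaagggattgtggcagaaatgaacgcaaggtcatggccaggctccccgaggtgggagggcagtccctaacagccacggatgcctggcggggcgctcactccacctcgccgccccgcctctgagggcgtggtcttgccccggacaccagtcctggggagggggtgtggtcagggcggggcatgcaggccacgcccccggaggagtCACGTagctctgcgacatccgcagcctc
CA9: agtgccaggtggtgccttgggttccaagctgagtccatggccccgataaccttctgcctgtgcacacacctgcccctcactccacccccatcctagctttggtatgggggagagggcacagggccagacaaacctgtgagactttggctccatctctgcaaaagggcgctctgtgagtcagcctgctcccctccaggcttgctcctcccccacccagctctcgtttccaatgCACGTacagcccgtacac
The match of EGLN1 begins 13 bases and that of CA9 18 bases before the start, and ALDOC has 3 matches, 2 of which overlap on opposite strands.

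Angiogenic factors and IGF binding proteins had differences in both directions, 7 of 15 tested higher (46.7%) and 5 lower (33.3%) in BFTC909, and 6 and 5 without FADU Scr-si normoxia replicate 1. The VEGF family was split between the lines. VEGFA rose in BFTC909 and fell in FADU, while PGF and VEGFC rose in FADU alone. VEGFC, the lymphatic growth factor, rose in FADU from 6.86 and 7.24 to 33.3 and 28.7 and read 58.9 and 58.7 in normoxia and 48.6 and 48.6 in hypoxia in BFTC909, a difference of -2.26 ± 0.1 (SE) (limma adjusted p = 5.5e-10), and was named after its values had been seen. Both neuropilins, the coreceptors of this family, fell in FADU. NRP1 was reversed, from 72.1 and 63.2 to 40.2 and 35.3 in FADU and from 110.2 and 111 to 147 and 147 in BFTC909, a difference of 1.23 ± 0.095 (SE) (limma adjusted p = 1.1e-07). IGFBP3, a carrier of insulin-like growth factors, rose in both lines, from 39.4 and 42.5 to 246 and 308 in FADU and from 14.3 and 21.5 to 328 and 329 in BFTC909. IGFBP4 was reversed, at 69.8 and 66.2 in normoxic FADU, 38 and 40.0 in hypoxic FADU, 0.582 and 0.419 in normoxic BFTC909 and 1.11 and 1.67 in hypoxic BFTC909, but its BFTC909 values were at most 1.67 and its adjusted p was 0.324 in the fit to all 12 libraries.

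Of 24 tested genes of cholesterol synthesis and uptake, 12 rose in FADU and 4 in BFTC909, and the response was lower in BFTC909 for 13 (54.2%) and higher for 3 (12.5%), with a median difference of -0.42. Without FADU Scr-si normoxia replicate 1 these were 12 and 3. MVD, an enzyme of the mevalonate pathway, rose in FADU from 28.8 and 24.8 to 50.3 and 54.7 and read 32 and 30.0 in normoxia and 25.7 and 29.1 in hypoxia in BFTC909, a difference of -1.12 ± 0.12 (SE) (limma adjusted p = 2.1e-06). STARD4, a cholesterol carrier, rose from 82.4 and 95.3 to 191 and 218 in FADU and read 104 and 108 in normoxia and 119.6 and 118 in hypoxia in BFTC909. IDI1, an isomerase of the same pathway, rose from 69.1 and 68.5 to 113 and 131 in FADU and read 109 and 111 in normoxia and 102 and 96.3 in hypoxia in BFTC909. SREBF2, which encodes the factor that drives these genes, read 494 and 478 in normoxia and 465 and 504 in hypoxia in FADU and rose in BFTC909 from 152 and 156 to 233 and 239, a difference of 0.62, and was named after its values had been seen.

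Fatty acid synthesis differed by gene, with 4 of 11 tested higher (36.4%) and 2 lower (18.2%). The desaturases FADS2 and FADS1 rose in BFTC909 alone. FADS2 rose there from 72.8 and 80.5 to 388 and 407 and read 19.2 and 18.6 in normoxia and 19.9 and 21.1 in hypoxia in FADU, a difference of 2.25 ± 0.085 (SE) (limma adjusted p = 8.2e-11). FADS1 rose from 236 and 246 to 586 and 574 and read 256 and 264 in normoxia and 242 and 261 in hypoxia in FADU. SREBF1, the factor of fatty acid synthesis, rose in BFTC909 from 43.1 and 42.1 to 86.3 and 89.2 and read 269.9 and 242 in normoxia and 205 and 224 in hypoxia in FADU.

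Lipid droplet genes had 5 of 12 tested higher (41.7%) and 3 lower (25%) in BFTC909. PLIN2, the coat protein of droplets, rose in both lines, from 14.4 and 16 to 37.9 and 48.6 in FADU and from 200.1 and 221 to 1216 and 1227 in BFTC909, a difference of 1.09 ± 0.12 (SE) (limma adjusted p = 4.8e-06). MGLL, monoacylglycerol lipase, was reversed at 3.53 and 1.16 in normoxic FADU, 5.03 and 5.15 in hypoxic FADU, 163 and 157 in normoxic BFTC909 and 60.0 and 66.5 in hypoxic BFTC909. The normoxic FADU libraries were further apart for their level than the other pairs, and the difference was -2.29 with both and -2.82 without replicate 1, with an adjusted p of 0.0613 in the fit to all 12 libraries. FABP5, reversed as given above, had a difference of -1.91 ± 0.083 (SE) (limma adjusted p = 2.4e-10).

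Most collagens responded more in BFTC909. Of 16 tested collagens, 10 (62.5%) were higher and 2 (12.5%) lower, with medians of 0.02 in FADU and 0.60 in BFTC909, and 9 and 2 without FADU Scr-si normoxia replicate 1. COL1A1, the main fibrillar collagen, rose in BFTC909 from 199 and 213 to 726 and 771 and read 5.24 and 4.69 in normoxia and 4.4 and 5.06 in hypoxia in FADU, a difference of 1.92 ± 0.1 (SE) (limma adjusted p = 2e-09). Both chains of basement membrane type IV collagen were reversed. COL4A1 fell in FADU from 29.5 and 30.7 to 20.7 and 17.6 and rose in BFTC909 from 102 and 111 to 154 and 159.5, and COL4A2 fell from 81.7 and 80.5 to 53.4 and 50.9 and rose from 242 and 250.5 to 365 and 379. COL16A1, a fibril-associated collagen, was reversed in the same way, from 16 and 17 to 6.61 and 6.75 in FADU and from 32 and 32.9 to 43.4 and 45.9 in BFTC909, with a difference of 1.63 ± 0.1 (SE) (limma adjusted p = 1.6e-08). COL17A1, a transmembrane collagen of hemidesmosomes, was reversed the other way, at 302 and 295 in normoxic FADU, 460.0 and 459 in hypoxic FADU, 13.1 and 14.2 in normoxic BFTC909 and 3.47 and 4.11 in hypoxic BFTC909, a difference of -2.24 ± 0.093 (SE) (limma adjusted p = 1.8e-10). The summed fibroblast markers were at 1430 and 1540 in BFTC909 normoxia and 5000 and 5200 in hypoxia, and at 65.7 to 85.4 in FADU. Most of the BFTC909 sum was the collagen COL1A2, at 805 and 882 in normoxia and 3600 and 3760 in hypoxia, and COL1A1 and COL3A1 are also among these markers. The marker THY1, no collagen, read 232 and 238 in normoxia and 253 and 259 in hypoxia, and MFAP5 read 164 and 164, then 252 and 244. COL12A1, another fibril-associated collagen, fell in BFTC909 from 128 and 130.5 to 48.4 and 47 and read 193 and 215 in normoxia and 272 and 236 in hypoxia in FADU.

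The enzymes and chaperones that process collagen had 9 of 15 tested higher (60.0%) and 2 lower (13.3%) in BFTC909, and 9 and 1 without FADU Scr-si normoxia replicate 1. SERPINH1, the collagen chaperone, rose in BFTC909 from 109 and 116 to 336 and 358 and read 179 and 173 in normoxia and 151 and 160.2 in hypoxia in FADU, a difference of 1.80 ± 0.072 (SE) (limma adjusted p = 1.4e-10). PLOD1, a lysyl hydroxylase, rose from 99.9 and 102 to 224 and 245 in BFTC909 and read 75.3 and 73.2 in normoxia and 87.3 and 91.8 in hypoxia in FADU. P3H4, a partner of the prolyl hydroxylases in this pathway, was reversed, from 47.8 and 44.9 to 34.4 and 33.9 in FADU and from 3.09 and 3.52 to 6.21 and 5.73 in BFTC909.

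Matrix proteases and inhibitors had 5 of 16 tested higher (31.2%) and 4 lower (25%). MMP2, a gelatinase, rose in BFTC909 from 47.5 and 51 to 286 and 304 and read 2.91 and 2.19 in normoxia and 3.46 and 3.24 in hypoxia in FADU, a difference of 2.26 ± 0.13 (SE) (limma adjusted p = 5.6e-09). PLAT, tissue plasminogen activator, was reversed, from 18.3 and 19.4 to 13 and 13.3 in FADU and from 9.35 and 8.98 to 13.9 and 13.2 in BFTC909. Integrins and laminins had 4 of 16 tested higher and 4 lower, 25% each way. ITGB8 rose in BFTC909 from 1.88 and 2.73 to 14.4 and 14.1, ITGA1 from 5.37 and 5.96 to 16.9 and 17.3 and ITGB5 from 78.1 and 86.4 to 193 and 203, all integrin chains. In FADU ITGB8 read 62.5 and 67.1 in normoxia and 50.8 and 54.8 in hypoxia. There ITGA1 read 3.62 and 3.04 in normoxia and 2.29 and 2.78 in hypoxia, and ITGB5 read 24.7 and 22.6 in normoxia and 24 and 22.9 in hypoxia.

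Mesenchymal genes had 6 of 15 tested higher (40.0%) and 2 lower (13.3%) in BFTC909, and 4 and 2 without FADU Scr-si normoxia replicate 1. The Snail factors, repressors of epithelial genes, were reversed in opposite ways. SNAI1 read 1.37 and 1.07 in normoxic FADU, 0.539 and 0.41 in hypoxic FADU, 4.74 and 6.71 in normoxic BFTC909 and 16 and 17.6 in hypoxic BFTC909, a difference of 2.01 ± 0.21 (SE) (limma adjusted p = 2.5e-06), with FADU near the minimum value of 1 used for testing. SNAI2 rose in FADU from 32.5 and 28.4 to 53.8 and 55.4 and fell in BFTC909 from 129 and 118 to 81.5 and 75.7, a difference of -1.47 ± 0.095 (SE) (limma adjusted p = 1.9e-08). Hypoxia thus raised a different Snail gene in each line.

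Epithelial junction genes had 4 of 15 tested higher (26.7%) and 3 lower (20%). Besides CLDN1, GRHL1, a grainyhead factor of epithelia, was reversed, from 8.56 and 8.18 to 13.5 and 18.1 in FADU and from 3.62 and 3.4 to 1.59 and 1.19 in BFTC909. DSP, the desmosomal plakin, read 1577 and 1648 in normoxia and 2022 and 2133 in hypoxia in FADU and fell in BFTC909 from 36.9 and 36.4 to 8.19 and 8.46, a difference of -2.38 ± 0.065 (SE) (limma adjusted p = 3.9e-12) with an adjusted p of 0.0715 in the fit to all 12 libraries. Of 4 tested keratins and squamous differentiation genes, 3 fell in each line. KRT18, a keratin of simple epithelia, fell from 1334 and 1193 to 484 and 444 in FADU and from 76.3 and 73.4 to 17.1 and 16.7 in BFTC909, a difference of -0.64. KRT80 fell from 102 and 88.8 to 35.2 and 34.2 and from 166 and 158 to 92.3 and 99, a difference of 0.68. With all 12 libraries neither difference was called (adjusted p = 0.752 and 0.449).

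Genes of TGF-beta signalling had 6 of 25 tested higher (24.0%) and 9 lower (36.0%), with 4 reversals. The latent binding proteins, which store the ligand in the matrix, were split. LTBP1 fell from 9.14 and 7.59 to 5.84 and 6.11 in FADU and rose from 94.3 and 96.3 to 228 and 240.1 in BFTC909, while LTBP2 rose from 26.1 and 23.1 to 33.8 and 33.7 in FADU and fell from 114 and 114 to 54.4 and 59.3 in BFTC909. Their differences were 1.71 ± 0.11 (SE) and -1.44 ± 0.092 (SE). SMAD3, the signal carrier, rose in FADU from 173 and 179.7 to 257 and 258 and fell in BFTC909 from 81.5 and 82.7 to 63.9 and 60.5, and PMEPA1, a target and feedback inhibitor, fell from 31.2 and 29 to 18.7 and 16.7 in FADU and rose from 39.6 and 36.3 to 51.8 and 50.5 in BFTC909.

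Interferon-stimulated genes more often had the higher response in FADU. Of 33 tested, 17 rose in FADU, and 10 rose and 2 fell in BFTC909. The response was lower in BFTC909 for 13 (39.4%) and higher for 4 (12.1%), or 12 and 5 without FADU Scr-si normoxia replicate 1. Several members had values near 1 in BFTC909, where the log2(value + 1) scale understates a change. SAMD9, with a BFTC909 normoxia mean of 1.17, went to 3.07 times that mean, against 1.88 times in FADU, and its difference was not called. HERC5, with a mean of 1.26, went to 0.857 times, against 1.79 times in FADU, and was called lower. RIGI, the cytosolic sensor of viral RNA, was reversed, from 44.9 and 46.4 to 89 and 91.1 in FADU and from 6.4 and 7.34 to 4.09 and 3.92 in BFTC909, a difference of -1.62 ± 0.11 (SE) (limma adjusted p = 3.8e-08). IFIT2 and IFIT3, which bind foreign RNA, rose in FADU from 31.6 and 34.4 to 95 and 97.4 and from 38.1 and 38.8 to 90.6 and 89.7. In BFTC909 IFIT2 read 3.22 and 3.19 in normoxia and 3.13 and 2.53 in hypoxia, and IFIT3 read 7.88 and 9.06 in normoxia and 7.37 and 8.65 in hypoxia. IFI27, named after its values had been seen, rose in both lines, from 9.27 and 8.62 to 30.1 and 35.9 in FADU and from 2.55 and 2.48 to 4.48 and 6.35 in BFTC909.

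MHC class I genes, which present peptides to T cells, leaned the other way. Of 14 tested, 5 (35.7%) were higher and 0 lower in BFTC909 by limma (1 lower at an unadjusted p under 0.05 and 0 by edgeR), and 7 and 0 without FADU Scr-si normoxia replicate 1. NLRC5, the transactivator of these genes, fell in FADU from 24.9 and 25.9 to 14.6 and 15 and rose in BFTC909 from 23 and 25.1 to 44.5 and 46.4, a difference of 1.64 ± 0.1 (SE) (limma adjusted p = 1e-08). HLA-C read 321 and 335 in normoxia and 326 and 351 in hypoxia in FADU and rose from 59.7 and 62 to 121 and 130.1 in BFTC909. Reads of the classical class I genes can be shared among them, so their single values are uncertain.

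Inflammatory cytokines and feedback genes of NF-kB were mixed, with 6 of 15 tested higher (40.0%) and 5 lower (33.3%). The neutrophil chemokine CXCL1 fell in BFTC909 from 63.7 and 64.6 to 9.2 and 9.75 and read 13.3 and 13.3 in normoxia and 10.4 and 11.2 in hypoxia in FADU, a difference of -2.36 ± 0.11 (SE) (limma adjusted p = 5.5e-10). CXCL2 fell in both lines, from 3.28 and 3.35 to 0.899 and 1.82 in FADU and from 11.6 and 10.7 to 2.46 and 1.77 in BFTC909. NFKBIE, an inhibitor of NF-kB, fell in BFTC909 from 12 and 11.5 to 4.67 and 5.45 and read 4.28 and 4.82 in normoxia and 4.54 and 4.42 in hypoxia in FADU. ICAM1, an adhesion molecule induced by NF-kB and named after its values had been seen, rose in both lines, from 20.9 and 19.8 to 30.0 and 26.9 in FADU and from 13.7 and 14.4 to 42.9 and 41.4 in BFTC909.

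Of 24 tested immediate early genes and ERK feedback genes, 14 fell in FADU and 16 in BFTC909. The response was lower in BFTC909 for 11 (45.8%) and higher for 6 (25%), or 11 and 4 without FADU Scr-si normoxia replicate 1. EGR1 fell in FADU from 308 and 289 to 47.1 and 50.4 and was low in BFTC909, at 2.86 and 2.98 in normoxia and 3.42 and 2.91 in hypoxia, a difference of 2.67 ± 0.11 (SE) (limma adjusted p = 2.2e-10). JUNB, a factor of the Jun family, was reversed, from 108 and 101 to 64.5 and 71.5 in FADU and from 22.6 and 21.1 to 34.6 and 36.5 in BFTC909. SPRY4, an inhibitor of receptor signalling that ERK induces, fell from 6.03 and 7.01 to 2.79 and 2.14 in FADU and from 21.7 and 22.4 to 1.88 and 2.91 in BFTC909. Named after their values had been seen, MYC fell in BFTC909 from 121 and 122 to 66.7 and 62.6 and read 182 and 170.2 in normoxia and 162 and 165 in hypoxia in FADU, FOSL1 fell from 131 and 112 to 68.3 and 59 in FADU and from 256 and 256 to 51.6 and 59.2 in BFTC909, and KLF6 rose in FADU from 22.2 and 22.7 to 48.7 and 54.9 and read 235 and 228 in normoxia and 185 and 185 in hypoxia in BFTC909.

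The EGFR family and its ligands had 3 of 7 tested higher (42.9%) and 2 lower (28.6%). ERBB2 read 118 and 110.0 in normoxia and 95.5 and 101 in hypoxia in FADU and rose in BFTC909 from 9.53 and 9.14 to 17.2 and 18, and LRIG1, which turns over these receptors, rose from 161 and 162 to 318 and 327 and read 5.78 and 7.06 in normoxia and 4.54 and 5.02 in hypoxia in FADU. ERRFI1, an inhibitor of the receptors, was reversed, from 42.6 and 43.5 to 66.3 and 71.2 in FADU and from 16.7 and 16.6 to 11.7 and 13.4 in BFTC909. The ligand EREG fell from 199 and 205 to 49.2 and 50.8 in FADU and from 1.25 and 1.59 to 0.434 and 0.525 in BFTC909, and its difference of 1.28 became 0.48 with an adjusted p of 0.31 by edgeR on whole reads.

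Of 34 tested ribosome biogenesis genes, 18 fell in FADU and 32 in BFTC909, with medians of -0.39 and -0.90, and 18 (52.9%) were lower and 1 (2.94%) higher in BFTC909. NIP7, a biogenesis factor, fell in BFTC909 from 80.6 and 73.8 to 32.3 and 29.9 and read 74.4 and 80.8 in normoxia and 65.1 and 61.1 in hypoxia in FADU, a difference of -0.99 ± 0.091 (SE) (limma adjusted p = 6.9e-07). DDX21, a nucleolar helicase, fell from 638 and 624 to 305 and 299 in BFTC909 and read 442 and 478 in normoxia and 392 and 368 in hypoxia in FADU. LYAR, a nucleolar growth factor, fell in both lines, from 47.2 and 44.5 to 31.6 and 27.7 in FADU and from 43.5 and 39.8 to 14.4 and 13.1 in BFTC909.

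The proteins of the cytosolic ribosome had 15 of 78 tested lower (19.2%) and 3 higher (3.85%) in BFTC909, a lower share near that of all genes, with a median difference of -0.21. RPSA rose in FADU from 809 and 873 to 1065 and 1131 and read 847 and 845 in normoxia and 671 and 701 in hypoxia in BFTC909. RPL17 and RPL36A fell in FADU alone, with differences of 0.85 and 0.65, and ribosomal protein genes share reads with many pseudogenes. Mitochondrial ribosomal proteins had 18 of 75 tested lower (24.0%) and 1 higher (1.33%), with 25 members fallen in FADU and 50 in BFTC909. MRPL18 fell in BFTC909 from 78.5 and 78.3 to 46.7 and 43.5 and read between 49 and 52 in the 4 FADU libraries, while MRPS6 rose in FADU from 51.6 and 56.7 to 89.1 and 92.2 and read 26.5 and 26.1 in normoxia and 23 and 24.3 in hypoxia in BFTC909. MRPL38 was the member with a higher response in BFTC909, at 4.03 and 4.07 in normoxic FADU, 2.88 and 2.46 in hypoxic FADU, 1.66 and 1.51 in normoxic BFTC909 and 2.36 and 2.15 in hypoxic BFTC909.

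DNA replication genes had 14 of 42 tested lower in BFTC909 (33.3%) and 0 higher by limma (3 higher at an unadjusted p under 0.05 and 1 by edgeR), 5 members fallen in FADU and 23 in BFTC909. CCNE2, a cyclin of the entry into S phase, was reversed, from 17.9 and 17.4 to 25.6 and 23.5 in FADU and from 65.6 and 62.9 to 44.8 and 42.9 in BFTC909, a difference of -0.99 ± 0.092 (SE) (limma adjusted p = 7.1e-07). The origin factors MCM10 and CDC6 fell in BFTC909, from 89.2 and 87.7 to 39.5 and 43.5 and from 111 and 109 to 62.1 and 64.5, respectively. In FADU MCM10 read 58.1 and 59.1 in normoxia and 55.9 and 48.9 in hypoxia, and CDC6 read 121 and 129 in normoxia and 129.9 and 123 in hypoxia. Of the mitosis genes 3 of 36 tested were higher (8.33%) and 1 was lower (2.78%), both under the shares of all genes. CENPF, a kinetochore protein, rose in BFTC909 from 828 and 818 to 1090 and 1106 and read 573 and 624 in normoxia and 495 and 463 in hypoxia in FADU. ANLN, of the cleavage furrow, rose in FADU from 417 and 442 to 614 and 598 and read 830.0 and 830.4 in normoxia and 748 and 726 in hypoxia in BFTC909, and ASPM, of the spindle pole, had a difference of 0.46 with neither line's change called. Of the replication-dependent histone genes 2 were tested. The difference of HIST1H4B, 0.41, was not called without BFTC909 hypoxia replicate 2 (0.34), FADU hypoxia replicate 1 (0.36) or FADU normoxia replicate 2 (0.28), nor with all 12 libraries (adjusted p = 0.103).

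NRF2 targets of the antioxidant response had 7 of 24 tested lower (29.2%) and 4 higher (16.7%). The efflux pump ABCC3 was reversed, from 26.7 and 25 to 12.4 and 12.3 in FADU and from 43 and 46.3 to 83 and 78.4 in BFTC909, a difference of 1.84 ± 0.093 (SE) (limma adjusted p = 1.5e-09). AKR1C1, an aldo-keto reductase whose close relatives may share its reads, fell in BFTC909 from 116 and 117 to 39.4 and 42.2 and read 7.06 and 7.06 in normoxia and 8.0 and 10.3 in hypoxia in FADU. The other reversed member, SLC7A11, is also in the ATF4 list.

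Among 6 tested metallothioneins and zinc transporters, MT2A, a metal-binding protein of a family that may share reads, rose in FADU from 111 and 91.9 to 172 and 152 and fell in BFTC909 from 144 and 142 to 66.9 and 71.5, a difference of -1.71 ± 0.11 (SE) (limma adjusted p = 1.3e-08). The zinc importer SLC39A14 was reversed the other way, from 159.7 and 172 to 114 and 111 in FADU and from 297 and 304 to 406 and 416 in BFTC909, a difference of 1.01 ± 0.066 (SE) (limma adjusted p = 2.3e-08). No other member was called.

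Targets of p53 had 7 of 23 tested lower (30.4%) and 3 higher (13%), with a median difference of -0.01. CDKN1A, the cell cycle inhibitor, was reversed at 11.2 and 8.04 in normoxic FADU, 13.3 and 17 in hypoxic FADU, 5.46 and 4.87 in normoxic BFTC909 and 3.13 and 3.1 in hypoxic BFTC909, a difference of -1.19 ± 0.2 (SE) (limma adjusted p = 0.0002). TP53INP1, a cofactor of p53, read 3.32 and 1.21 in normoxic FADU, 1.93 and 3.01 in hypoxic FADU, 4.03 and 5.29 in normoxic BFTC909 and 14.3 and 15.4 in hypoxic BFTC909, and its difference of 1.34 was 0.86 without FADU normoxia replicate 1. PLK2, a stress-induced kinase, fell in BFTC909 from 774 and 766 to 431 and 444 and read 86.1 and 62.6 in normoxia and 78.2 and 80.7 in hypoxia in FADU. With all 12 libraries none of these was called (adjusted p = 0.102 for CDKN1A, 0.363 for TP53INP1 and 0.319 for PLK2).

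Clock genes had 6 of 13 tested higher (46.2%) and 0 lower in BFTC909 by limma (1 lower at an unadjusted p under 0.05 and 0 by edgeR), with or without FADU Scr-si normoxia replicate 1. PER1, a repressor of the clock, rose in BFTC909 from 2.86 and 2.14 to 5.35 and 5.02 and read 14.3 and 13.9 in normoxia and 10.1 and 11.9 in hypoxia in FADU, a difference of 1.17 ± 0.17 (SE) (limma adjusted p = 6.2e-05). TEF, an output factor of the clock, rose from 10.7 and 9.86 to 16.4 and 19.2 in BFTC909 and read 29.8 and 32.8 in normoxia and 26.4 and 30.8 in hypoxia in FADU. RORA, an activator of the clock, rose in both lines, from 9.85 and 9.47 to 37.9 and 42.5 in FADU and from 0.0447 and 0.21 to 6.41 and 5.97 in BFTC909. BFTC909 normoxia lay near 0, and the difference of 0.73 turned to -0.50 with a pseudocount of 5.

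Of 12 tested lncRNAs known from cancer or hypoxia, 2 were higher and 2 lower (16.7% each). Besides UCA1, MIR210HG, the host of the hypoxia microRNA, rose in both lines, from 2.58 and 2.46 to 23.4 and 25.4 in FADU and from 4.16 and 5.29 to 21.4 and 22.1 in BFTC909. KCNQ1OT1, an imprinted antisense transcript, rose in BFTC909 from 225 and 226 to 373 and 363 and read 76.5 and 56 in normoxia and 61.6 and 68.8 in hypoxia in FADU, but its adjusted p was 0.208 in the fit to all 12 libraries. The libraries kept the strand, but the strand setting of the counting is not given in the sources used here, so reads of an antisense gene and its partner may not be separated. Host genes of small nucleolar RNAs had 4 of 21 tested higher (19%) and 1 lower (4.76%). SNHG16 fell in BFTC909 from 196 and 195 to 104 and 104 and read 169.3 and 176 in normoxia and 180.5 and 183 in hypoxia in FADU, while SNHG8 and SNHG15 fell in FADU alone, from 54.9 and 60.9 to 30.0 and 28.4 and from 49.8 and 55.7 to 31.2 and 27.2.

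Histone lysine demethylases, which need oxygen to work, had 5 of 22 tested lower (22.7%) and 2 higher (9.09%), with 7 members risen in each line. KDM6B rose in BFTC909 from 8.77 and 8.47 to 15.3 and 16.6 and read 46.5 and 40.7 in normoxia and 37.1 and 41.3 in hypoxia in FADU, and KDM1B fell in BFTC909 from 71.7 and 73.8 to 52.2 and 49.6 and read 25.1 and 23.4 in normoxia and 31.6 and 31.1 in hypoxia in FADU. KDM7A rose in both lines, from 8.39 and 9.07 to 22.7 and 26.7 in FADU and from 25.1 and 25.7 to 40.0 and 39.4 in BFTC909. METTL4, the methyltransferase that the series is about and named for that reason, read 31.9 and 30.8 in normoxic FADU, 26.6 and 25.3 in hypoxic FADU, 20.8 and 18.9 in normoxic BFTC909 and 19 and 15.6 in hypoxic BFTC909, and its difference of 0.07 ± 0.12 (SE) was not called (limma adjusted p = 0.65). In the libraries labelled METTL4-si it read 24.3 and 27.1 in FADU and 14.4 and 12.2 in BFTC909.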

How the data were processed

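Human cancer cell lines were profiled by paired-end RNA-seq on a NextSeq 550 after ribosomal RNA depletion with a stranded kit. Per the submitters' processing notes, reads were trimmed with Trim Galore, aligned to hg19 with HISAT2, counted per gene with htseq-count and scaled with edgeR. Versions, the gene annotation and the strand setting are not given in the sources used here. The deposited signal values are read counts divided by the TMM-scaled library size, on the CPM scale, by the authors, separately for each line. In all 8 libraries every value checked came out as a whole number of reads within 0.02 reads. Values with high read counts were not part of this check. In the deposited tables the second-highest count of a gene was at least 10 reads in FADU and 9 in BFTC909, so genes low in a line are not in its table. Tables of the authors' own comparisons (log2 fold changes, log CPM, F and p-values) were not used.

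The 4 groups of 2 Scr-si libraries were fitted together with limma 3.58.1 (R 4.3.3) on log2(value + 1), with a variance trend, and the interaction was tested over 13070 genes with Benjamini-Hochberg adjustment. A difference or response was called at an adjusted p under 0.05 and a change of at least 1.3-fold. The values are not counts as deposited, so edgeR 4.0.16 on the recovered whole reads served as an alternative. The fits were tested on simulated data. Symbols came from GENCODE v44 lifted to GRCh37, which gave 15468 of the 15926 gene IDs a symbol. Python 3.11.15 with pandas 2.3.3, numpy 2.4.6, scipy 1.17.1 and matplotlib 3.10.9 was used for tables and figures.

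Genes named are those with the largest differences of each kind among genes with a mean value of at least 5 in each line, the called members of each list with the largest differences, and all members of the HIF system. Some genes that the rule gave are not reported here. Others are stated as named after their values were seen. Members and lists were chosen with earlier results of these data known. Alternatives changed the pseudocount, filter, trend, centring, threshold, replicate block, libraries and tool.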

Additional observations from a re-analysis of the deposited data

Results flagged for a closer look

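The test of the line by oxygen interaction was itself a test of a difference between groups, so its counts and leading genes are listed here. The response was higher in BFTC909 for 2206 genes and lower for 2300. It was reversed for 273 genes, of which 159 rose in BFTC909 and 114 rose in FADU, and it differed in size in the same direction for 396.

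Among reversed genes that rose in BFTC909, the log2 differences were 3.54 for MIR3648, 3.28 for ARTN, 3.14 for DHRS3, 2.96 for MIR663AHG, 2.90 for VEGFA and 2.81 for DOCK11. Among those that rose in FADU they were -3.88 for UCA1, -3.36 for PFKFB4, -2.78 for CRYBG2, -2.72 for CLDN1, -2.43 for PHLDB2 and -2.34 for FABP5P7. Among genes called in 1 line they were 3.34 for FER1L4, 3.20 for NRP2, -2.77 for PGF and -2.72 for THBS1.

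Among genes that moved the same way in both lines, the differences were 2.91 for CDK18, 1.67 for CA9 and 1.62 for ACKR3, which rose more in BFTC909. They were -2.52 for TCAF2 and -2.12 for NDRG1, which rose more in FADU. They were -2.19 for KIAA1671, -1.84 for WNT7B and -1.83 for ETV4, which fell more in BFTC909, and 1.79 for MTND6P4, 1.71 for MT-ND6 and 1.68 for ELFN2, which fell more in FADU.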

How the results depend on the processing

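Of the 4506 genes called, 4263 were also called by edgeR on whole reads, which called 2415 higher and 2158 lower, and 253 of the 273 reversed genes were among the 327 that edgeR gave. With median-centred libraries 2482 genes were higher and 1963 lower. The reversed and same-direction counts depended on the settings. With a pseudocount of 5, 150 genes were reversed (82 up in BFTC909 and 68 up in FADU) and 221 moved the same way. With a 2-fold threshold 387 genes were higher and 287 lower, 14 were reversed (7 and 7) and 23 moved the same way. With the METTL4-si libraries added, for 12 in all, 3218 genes were called, 1478 higher and 1740 lower. In that fit 205 genes were reversed (108 up in BFTC909 and 97 up in FADU) and 252 moved the same way.

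Leaving out each library in turn gave 1954 to 2174 genes higher, 2176 to 2368 lower, 252 to 303 reversed (138 to 179 up in BFTC909 and 109 to 124 up in FADU) and 356 to 391 in the same direction. A left-out library leaves its group with 1 sample, which is assumed to vary like the other groups.

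No pairing of the samples by replicate number was detected, which does not exclude one. Deviations of same-numbered libraries had a correlation of -0.0308 in FADU and 0.0467 in BFTC909. With the replicate block 2160 genes were higher, 2282 lower, 162 and 115 reversed and 390 in the same direction, and 4411 of its 4442 calls were shared.

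Of the genes named, RORA reversed to -0.50 with a pseudocount of 5. Leaving out each library in turn, HIF1A lay between -0.115 and 0.002 (without BFTC909 Scr-si hypoxia replicates 1 and 2) and METTL4 between -0.06 and 0.209 (without the same replicates), none of them called. Among the 171 genes named, a pseudocount of 5 shrank 18 differences by more than 1.5 times, counting only differences of at least 1.3-fold. The cause of these changes was not tested.

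With 2 libraries a group, error comes from few values. For genes at low values the log2(value + 1) scale understates the change. The tables left out genes low in a line, so differences of genes silent in 1 line were not analysed here. Line, table and experiment cannot be told apart.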
